A study of Mus musculus with 9 samples.

Results

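The genes described here encode SR proteins and heterogeneous nuclear ribonucleoproteins (hnRNPs), the most abundant families of RNA-binding splicing regulators in mammalian nuclei. Members were chosen by gene symbol, as symbols that begin with Srsf and a digit or with Hnrnp. Pseudogenes, Hnrnpa1 and Hnrnpa2b1 were left out, and a member needed at least 0.5 RPKM in at least 3 of 9 libraries. RPKM divides reads by transcript length and by the size of the library, which lets levels be compared between genes. Of the 14831 genes in the table, 29 met the rule, 11 SR and 18 hnRNP genes. None was removed by the filter on low values, and none stood at the table's floor in any library. The lowest member, Srsf12, held 5.16 RPKM in its lowest library, so that no member lay near the limit of 0.5 RPKM.

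The tissue was spinal cord, taken 2 weeks after a 10 µl injection into the right lateral ventricle. All mice were wild-type, female and 10 weeks old, of the strain C57Bl/6, which the labels leave out for 1 control ASO library. An antisense oligonucleotide (ASO) is a short modified nucleic acid strand that pairs with a chosen RNA and lowers its level. The 3 groups of 3 libraries were the C9orf72 ASO group, with 500 µg of an ASO against mouse C9orf72, the control ASO group, with the same amount of a control ASO, and the saline group, with no ASO. The design asks what loss of C9orf72 function does in the spinal cord. These mice carry the normal gene and no repeat expansion, and an ASO lowers the RNA without removing the gene.

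SR proteins carry RNA recognition motifs and a tail rich in arginine and serine. They bind exons as the transcript is made and mostly promote their inclusion, and the kinases of the SRPK and CLK families control where they go and what they bind. hnRNP proteins coat nascent transcripts and often hide splice sites, and several also act in RNA export, stability and transport. Many SR and hnRNP proteins limit their own level by switching their transcript to a form that nonsense-mediated decay destroys. In people with the C9orf72 repeat expansion, repeat RNA forms nuclear foci and binds RNA-binding proteins, among them hnRNP H, which is why these families are followed in this disease.

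C9orf72, the target, held 2.68, 3.4 and 3.12 RPKM in the C9orf72 ASO libraries, 11.2, 11.7 and 10.6 RPKM in the control ASO libraries and 10.5, 11.4 and 11.5 RPKM in the saline libraries. It fell by 1.84 on the log2 scale against the control ASO (adjusted p = 1.83e-06, limma). The step between low values implied a scale of 90.3 to 124.2 M reads per library. Of the markers of spinal cord position, 6 of 7 listed Hox genes were in the table. The motor neuron gene Chat lay between 5.28 and 6.57 RPKM, and the forebrain genes Emx1 and Tbr1 were not among the listed genes, while Neurod6 lay between 1.52 and 2.19 RPKM. These are bulk samples, in which fewer cells of a type and less RNA per cell cannot be told apart. Whether each library came from its own animal is not stated in the labels, so that the p-values measure the spread between these samples, which may be technical.

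None of the 29 SR and hnRNP genes passed the threshold of an adjusted p under 0.05 in any of 4 comparisons (limma on log2(RPKM + 0.1), Benjamini-Hochberg over 14430 genes). Against the control ASO 0 of 29 members passed, where 0.0693% of all genes tested did, and the lowest adjusted p of a member was 0.304. Against saline it was 0 of 29 beside 0.0693% of all genes, and against both control groups in 1 contrast 0 of 29 beside 0.173%. Between the control ASO and saline it was 0 of 29 beside 0.00693%. At an unadjusted p under 0.05 lay 1 member against the control ASO, lower, where 14.1% of all genes did (6.39% higher, 7.71% lower). Against saline 1 member was higher and 1 lower at this p, beside 14% of all genes (3.79% higher, 10.2% lower). Against both control groups 1 was higher, beside 16.7% (5.87% higher, 10.9% lower), and between the control ASO and saline 0 lay there, beside 5.35% (1.37% higher, 3.98% lower).

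The intervals were narrow. The 95% interval of the fold change lay within 1.25-fold in either direction for each of the 29 members in each of the 4 comparisons. The same held for 62.2% of all genes tested against the control ASO, 63% against saline, 71.4% against both control groups and 68.8% between the control ASO and saline. Among the 8149 genes between the lowest and the highest member in level, it held for 76.7%, 79.2%, 85.6% and 85.3% in these comparisons. The bound of 1.25-fold was chosen after the values were seen, and each interval covers its own gene and not all 29 at once. With 1 library left out, between 25 and 29 members lay within the bound, the fewest without C9orf72 ASO replicate 3.

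**Figure D1:**
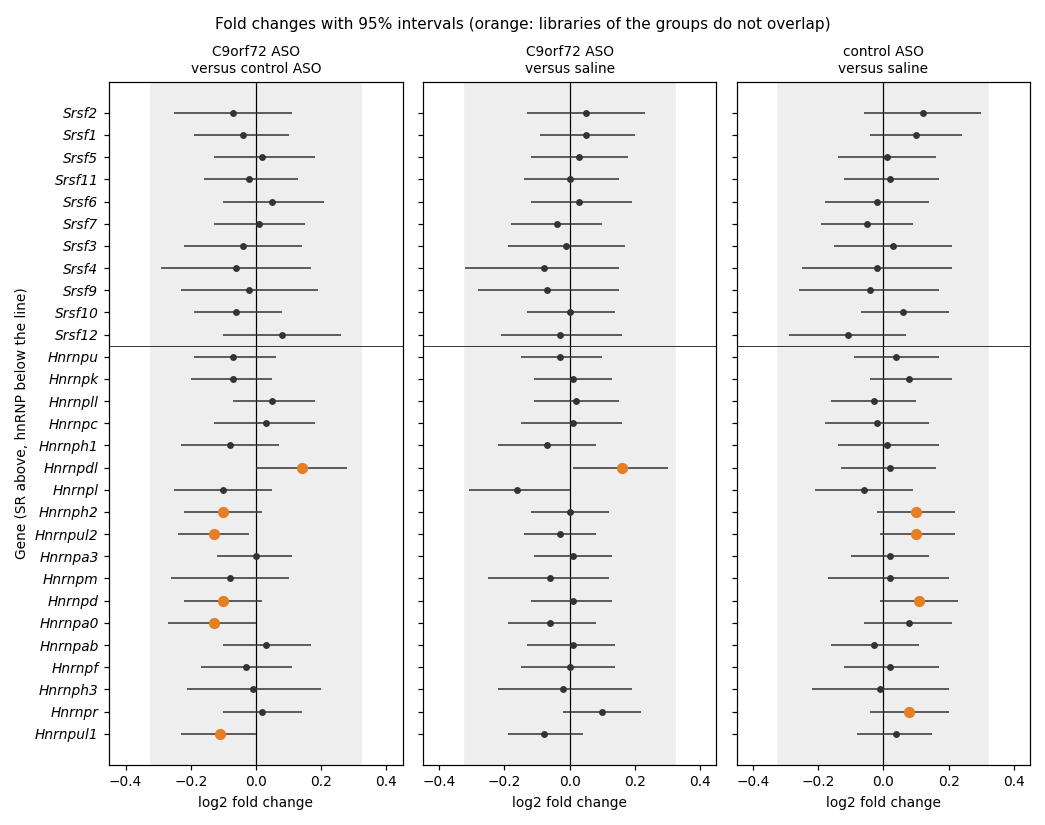
Log2 fold change of each SR gene (above the line) and hnRNP gene (below it) with its 95% interval from limma, in the comparisons of the C9orf72 ASO with the control ASO, of the C9orf72 ASO with saline and of the control ASO with saline. The grey band marks 1.25-fold in either direction and holds every interval; orange points are genes whose libraries did not overlap between the groups.

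The members were among the more abundant mRNAs of the tissue. Their median level was 55.9 RPKM, against 7.96 RPKM over all genes tested, and 16 of 29 lay in the top 10 percent of levels. The SR median was 33.8 RPKM and the hnRNP median 58.8 RPKM. Means over 9 libraries ran between 161 RPKM (Srsf2) and 6.08 RPKM (Srsf12).

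**Figure D2:**
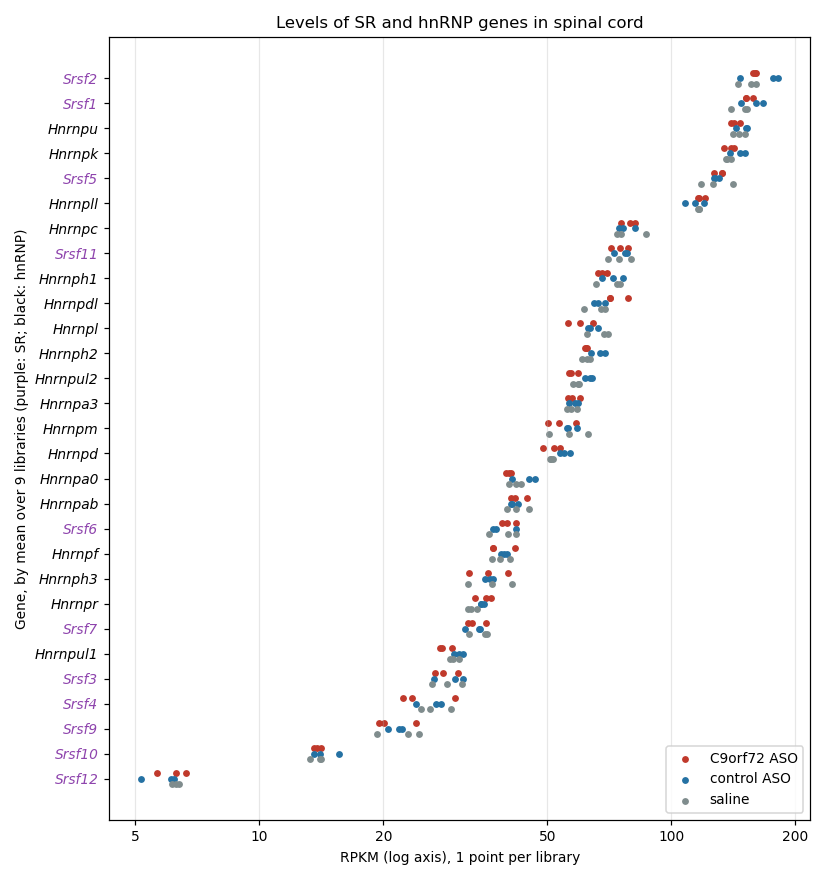
RPKM of the 29 genes on a log axis, 1 point per library, with the C9orf72 ASO libraries in red, the control ASO libraries in blue and the saline libraries in grey. Srsf2 leads at a mean of 161 RPKM and Srsf12 is last at 6.08 RPKM, and within a gene the colours lie close together.

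Srsf2, which binds exonic enhancers and marks nuclear speckles, was the most abundant member. It held 158, 160 and 161 RPKM in the C9orf72 ASO libraries, 147, 182 and 177 RPKM in the control ASO libraries and 156, 145 and 161 RPKM in the saline libraries. The C9orf72 ASO libraries lay inside the range of the control ASO libraries, which spanned the widest range of the 3 groups. Its log2 fold change was -0.07 against the control ASO (SE 0.08, 95% interval -0.25 to 0.11).

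Srsf1, the prototype of the family and an enhancer of exon inclusion, held 152, 152 and 158 RPKM in the C9orf72 ASO libraries. It held 148, 167 and 161 RPKM in the control ASO libraries and 151, 140 and 153 RPKM in the saline libraries. The 3 groups overlapped, and control ASO replicate 2 was the highest library for this gene as it was for Srsf2. The log2 fold change was -0.04 against the control ASO (95% interval -0.19 to 0.10) and 0.05 against saline (-0.09 to 0.20).

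Srsf5, a relative of Srsf4 and Srsf6, averaged 131 ± 3.64 RPKM with the C9orf72 ASO, 129 ± 2.12 RPKM with the control ASO and 128 ± 11.4 RPKM with saline (SD, n = 3 each). Srsf11, an arginine- and serine-rich protein of the early spliceosome, averaged 75.1 ± 3.67, 75.9 ± 2.92 and 74.9 ± 4.73 RPKM in the C9orf72 ASO, control ASO and saline groups. Srsf6 averaged 40.3 ± 1.56, 38.8 ± 2.78 and 39.4 ± 2.98 RPKM in the same order of groups. These 3 genes differed between groups by less than their spread within saline.

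Srsf7 and Srsf3, which also act as adaptors for mRNA export, averaged 33.5 ± 1.8 and 28.3 ± 1.92 RPKM with the C9orf72 ASO. With the control ASO they averaged 33.3 ± 1.6 and 29.2 ± 2.41 RPKM, and with saline 34.5 ± 1.86 and 28.6 ± 2.38 RPKM. Srsf4 spread most between replicates of all members, with a residual SD of 0.159 on the log2 scale. It held 22.3, 23.5 and 29.8 RPKM in the C9orf72 ASO libraries, 27.6, 24 and 26.9 RPKM in the control ASO libraries and 29.2, 24.7 and 25.9 RPKM in the saline libraries. Both its lowest and its highest library belonged to the C9orf72 ASO group. Srsf9, a small SR protein close to Srsf1, averaged 21.2 ± 2.46 RPKM with the C9orf72 ASO, 21.5 ± 0.903 RPKM with the control ASO and 22.2 ± 2.66 RPKM with saline.

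Srsf10 and Srsf12 were the lowest members. Srsf10, which represses splicing when its phosphates are removed, held 14.1, 13.6 and 13.8 RPKM in the C9orf72 ASO libraries, 13.6, 15.6 and 14 RPKM in the control ASO libraries and 14, 13.3 and 14.1 RPKM in the saline libraries. Srsf12, the closest relative of Srsf10, held 6.62, 6.26 and 5.63 RPKM with the C9orf72 ASO, 5.16, 6.21 and 6.09 RPKM with the control ASO and 6.39, 6.14 and 6.26 RPKM with saline. Control ASO replicate 1 was the lowest library for Srsf12, and the C9orf72 ASO group held both sides of the saline range. Relative to the control ASO, Srsf12 stood at 0.08 on the log2 scale (adjusted p = 0.665, limma), the highest among SR genes.

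Over the 11 SR genes the log2 fold changes ran between -0.07 and 0.08 against the control ASO, with 4 positive, 7 negative and a median of -0.02. They ran between -0.08 and 0.05 against saline (median 0.00) and between -0.11 and 0.12 for the control ASO against saline (median 0.01). No SR gene had groups that did not overlap in any of these comparisons. The median over all genes tested was -0.01, -0.03 and -0.02 in the same comparisons.

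The members whose libraries did not overlap between groups were all hnRNP genes. Against the control ASO, 6 of 29 members (6 of 18 hnRNP genes) had libraries that did not overlap, 1 higher and 5 lower. Over all genes tested, libraries did not overlap in 22%, with 10.1% higher and 11.8% lower, so that 6 of 29 members is near the share of all genes. Against saline it was 1 of 29 members, higher, where 18% of all genes did not overlap (5.61% higher, 12.4% lower). Against both control groups it was again 1 of 29, higher, beside 7.87% (2.82% higher, 5.05% lower). Between the control ASO and saline it was 4 of 29, each higher, beside 10.3% (3.16% higher, 7.15% lower). The hnRNP median was -0.07 against the control ASO, 0.00 against saline and 0.02 for the control ASO against saline. With trends on transcript length and GC content removed, the median against the control ASO was -0.03.

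Hnrnpdl, a relative of Hnrnpd that binds AU-rich RNA and is known for an autoregulated transcript, was the member with the highest fold change. It held 78.4, 71.2 and 71.1 RPKM in the C9orf72 ASO libraries, 64.8, 66.3 and 68.9 RPKM in the control ASO libraries and 68.9, 61.5 and 67.5 RPKM in the saline libraries. Each C9orf72 ASO library lay above the other 6. The log2 fold change was 0.14 relative to the control ASO (adjusted p = 0.364, limma) and 0.16 relative to saline (adjusted p = 0.32, limma), each with an SE of 0.07. Against both control groups it was 0.15, with a 95% interval of 0.02 to 0.27 and an adjusted p = 0.232 (limma). The exact permutation test over samples gave p = 0.0119 (two-sided, unadjusted, 29 members looked at), the smallest that 84 splits allow. Without C9orf72 ASO replicate 1, the highest library, the log2 fold change against the control ASO was 0.09.

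Hnrnpd, the paralog of Hnrnpdl, promotes decay of mRNAs with AU-rich elements. It held 52, 48.9 and 53.6 RPKM in the C9orf72 ASO libraries, 55, 53.8 and 56.9 RPKM in the control ASO libraries and 51.2, 50.9 and 51.7 RPKM in the saline libraries. The control ASO libraries were above the other 6, and the C9orf72 ASO and saline libraries overlapped. The log2 fold change was -0.10 against the control ASO (adjusted p = 0.431, limma), 0.01 against saline and 0.11 for the control ASO against saline (adjusted p = 0.794, limma).

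The promoters of this paralog pair are shown to let the sequences of the genes be compared. Each line is the 150 bases before the annotated start, from RefSeq on GRCm38.p6, with CpG dinucleotides in capitals; Hnrnpdl lies at chr5:100039223-100039372 and Hnrnpd at chr5:99978939-99979088, both on the minus strand.
Hnrnpdl: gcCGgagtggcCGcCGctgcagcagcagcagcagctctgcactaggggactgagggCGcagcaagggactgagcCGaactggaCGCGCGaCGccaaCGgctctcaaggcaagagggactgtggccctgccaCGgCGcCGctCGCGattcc
Hnrnpd: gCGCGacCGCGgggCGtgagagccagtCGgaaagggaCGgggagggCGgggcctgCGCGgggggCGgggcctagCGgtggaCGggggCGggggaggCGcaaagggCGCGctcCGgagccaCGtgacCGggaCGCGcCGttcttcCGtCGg

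The Hnrnpdl stretch held 15 CpG and the Hnrnpd stretch 25, while in the longer window used for all members the pair held 42 and 45. CpG-dense starts were common among the members: a 300-base window around the start, mostly upstream, held a median of 31 CpG in 27 members with a sequence, against 21 in 10516 protein-coding genes tested. The letters CCAAT, searched on both strands, were in 14 of these 27 windows (51.9%, against 38.5% of all), and TATAAA was in 4 (14.8%, against 6.87%). Of the other motifs searched, CCGGAAG was in 6 (22.2%, against 17.2%) and CACGTG in 4 (14.8%, against 10.1%). These counts are small, and no difference in motif share was tested. A match of letters is a description of the sequence and no measure of binding.

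Hnrnpul2 and Hnrnpul1 encode relatives of hnRNP U that take part in the response to DNA damage. Hnrnpul2 held 57, 56.5 and 59.5 RPKM with the C9orf72 ASO, 64.3, 63.4 and 61.8 RPKM with the control ASO and 57.7, 59.6 and 59.3 RPKM with saline. The control ASO libraries were again the highest, and the other groups overlapped. It was the member with the smallest p against the control ASO, with a log2 fold change of -0.13 (95% interval -0.24 to -0.02, adjusted p = 0.304, limma), and -0.08 with the length and GC trends removed. The control ASO against saline gave 0.10 (adjusted p = 0.794, limma).

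Hnrnpul1 held 27.4, 27.8 and 29.4 RPKM in the C9orf72 ASO libraries, 30.5, 29.7 and 31.3 RPKM in the control ASO libraries and 29.6, 30.6 and 29 RPKM in the saline libraries. The C9orf72 ASO libraries lay below those of the control ASO and overlapped those of saline. Against both control groups the log2 fold change was -0.09 (SE 0.05, adjusted p = 0.327, limma), and 0.01 with the length and GC trends removed, which turned its sign.

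Hnrnpu, the scaffold attachment protein that organises chromatin as well as RNA, was the most abundant hnRNP gene described here. It held 142, 140 and 147 RPKM in the C9orf72 ASO libraries, 144, 152 and 153 RPKM in the control ASO libraries and 151, 141 and 146 RPKM in the saline libraries. These ranges overlapped, with a log2 fold change of -0.07 against the control ASO (95% interval -0.19 to 0.06). Hnrnpk, which binds C-rich RNA and DNA, held 134, 142 and 140 RPKM with the C9orf72 ASO, 139, 151 and 147 RPKM with the control ASO and 136, 137 and 140 RPKM with saline. Its groups overlapped as well, and its log2 fold change was -0.07 against the control ASO and 0.01 against saline.

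The genes of hnRNP H and F, whose proteins bind runs of G and include the family named in studies of C9orf72 repeat RNA, showed no call. Hnrnph1 averaged 68 ± 1.69 RPKM with the C9orf72 ASO, 72.1 ± 4.27 RPKM with the control ASO and 71.5 ± 5.26 RPKM with saline (SD, n = 3 each). Its log2 fold change of -0.08 against the control ASO had a 95% interval of -0.23 to 0.07. Hnrnph2, the X-linked copy, held 62.6, 62.2 and 61.6 RPKM in the C9orf72 ASO libraries, 63.8, 69.2 and 67.1 RPKM in the control ASO libraries and 62.5, 60.6 and 63.5 RPKM in the saline libraries. Its control ASO libraries stood above the other 6, with a log2 fold change of -0.10 for the C9orf72 ASO against the control ASO (adjusted p = 0.419, limma) and 0.10 for the control ASO against saline (adjusted p = 0.794, limma). Hnrnph3 averaged 36.1 ± 3.86, 36.2 ± 0.778 and 36.6 ± 4.49 RPKM and Hnrnpf 38.5 ± 2.84, 39.3 ± 0.558 and 38.6 ± 1.86 RPKM in the C9orf72 ASO, control ASO and saline groups.

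For Hnrnpul2, Hnrnpd and Hnrnph2 the control ASO group was the one that stood apart. The share of all genes tested with this pattern was not counted, so whether 3 of 29 members is unusual was not tested. The comparisons with the control ASO share its 3 libraries, so that the negative value for the C9orf72 ASO and the positive value against saline rest on the same samples. Against saline, which shares no library with the control ASO, the C9orf72 ASO gave log2 fold changes of -0.03, 0.01 and 0.00 for these 3 genes. None of these values passed the threshold.

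Hnrnpl, which binds CA-rich RNA, had a lower mean with the C9orf72 ASO than in both control groups. Its relative Hnrnpll differed from each control group by less than its SE of 0.06. Hnrnpl held 59.9, 56.2 and 64.6 RPKM in the C9orf72 ASO libraries, 63.6, 66.5 and 62.8 RPKM in the control ASO libraries and 70.2, 62.3 and 68.6 RPKM in the saline libraries. C9orf72 ASO replicate 3 overlapped both other groups. The log2 fold change was -0.16 against saline (SE 0.07, 95% interval -0.31 to 0.00, adjusted p = 0.347, limma), and -0.05 with the length and GC trends removed. Hnrnpll averaged 118 ± 2.55 RPKM with the C9orf72 ASO, 114 ± 6.2 RPKM with the control ASO and 117 ± 0.0912 RPKM with saline, at 0.05 and 0.02 on the log2 scale against these controls.

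Hnrnpr, which in motor neurons binds axonal mRNAs, held 36.6, 33.4 and 35.5 RPKM with the C9orf72 ASO, 35.1, 34.6 and 34.5 RPKM with the control ASO and 32.6, 32.1 and 33.8 RPKM with saline. The control ASO libraries lay above those of saline, and the C9orf72 ASO libraries overlapped both. Against saline it stood at 0.10 on the log2 scale (SE 0.05, adjusted p = 0.436, limma) and against the control ASO at 0.02. Hnrnpa0, a single-exon member of the A/B group, held 39.8, 40.3 and 40.8 RPKM with the C9orf72 ASO, 41, 46.6 and 45.2 RPKM with the control ASO and 42.1, 40.3 and 43.3 RPKM with saline. The C9orf72 ASO libraries were below those of the control ASO, at -0.13 on the log2 scale (adjusted p = 0.355, limma, SE 0.06), and overlapped saline.

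The other hnRNP genes stayed close between groups. Processed copies of genes such as Hnrnpa3 can share reads, which may make their values uncertain and was not tested. Hnrnpa3 averaged 57.9 ± 2.02 RPKM with the C9orf72 ASO, 58.1 ± 1.42 RPKM with the control ASO and 57.3 ± 1.56 RPKM with saline. Hnrnpc, which binds U-rich RNA, averaged 79 ± 3.13, 77.6 ± 3.66 and 78.8 ± 6.98 RPKM in the same order. Hnrnpab averaged 42.4 ± 2.05, 41.5 ± 0.863 and 42.3 ± 2.62 RPKM, and Hnrnpm 54.1 ± 4.36, 57 ± 1.73 and 56.6 ± 6.17 RPKM. Their log2 fold changes lay between -0.08 and 0.03 in both comparisons with the C9orf72 ASO.

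**Figure D3:**
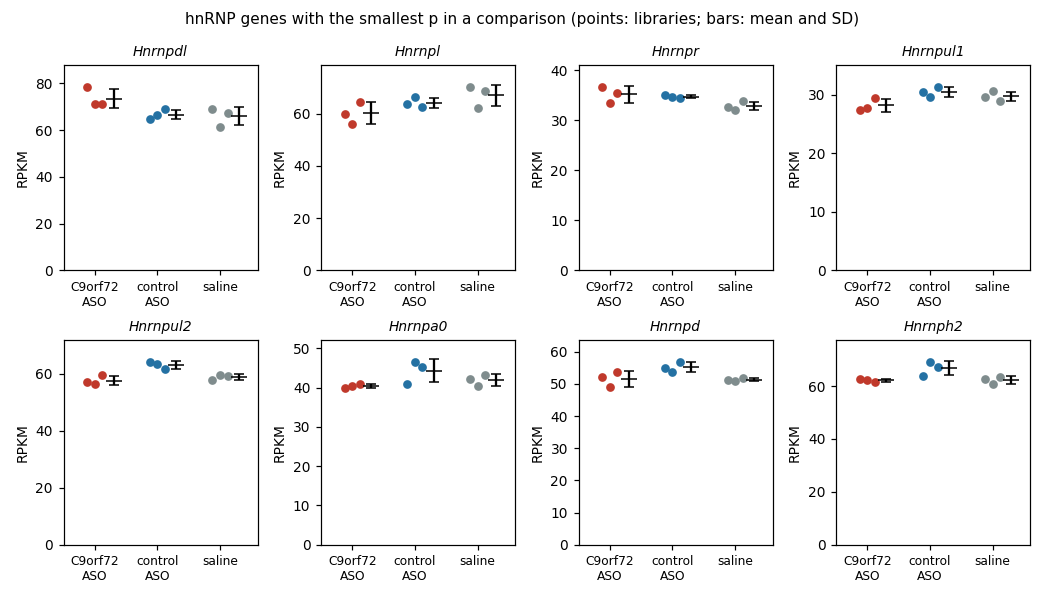
RPKM of the 8 hnRNP genes with the smallest p in a comparison, 1 point per library, with bars for mean and SD beside each group and an axis from 0. Hnrnpdl is the gene whose C9orf72 ASO libraries (71.1 to 78.4 RPKM) lie above the other 6, and in Hnrnpul2, Hnrnpd and Hnrnph2 the control ASO libraries are the highest.

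Between replicates most hnRNP genes varied little, and the SR genes varied more. The residual SD on the log2 scale had a median of 0.0738 over the 29 genes, against 0.102 over all genes tested and 0.0882 over genes between the lowest and the highest member in level. It was under 0.1 in 22 of 29 members (75.9%), in 48.3% of all genes and in 61.5% of genes of like level. Hnrnpul2 spread least (0.0323), followed by Hnrnph2 (0.04), and Srsf4 (0.159), Srsf9 (0.143) and Hnrnph3 (0.137) spread most. The other members above 0.1 were Hnrnpm (0.115) and the SR genes Srsf3 (0.113), Srsf12 (0.108) and Srsf2 (0.107). The middle SR gene in spread, Srsf6, stood at 0.0923, above the median of genes of like level. In each gene the highest of 9 libraries was between 1.07 times (Hnrnpa3) and 1.34 times (Srsf4) the lowest.

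**Figure D4:**
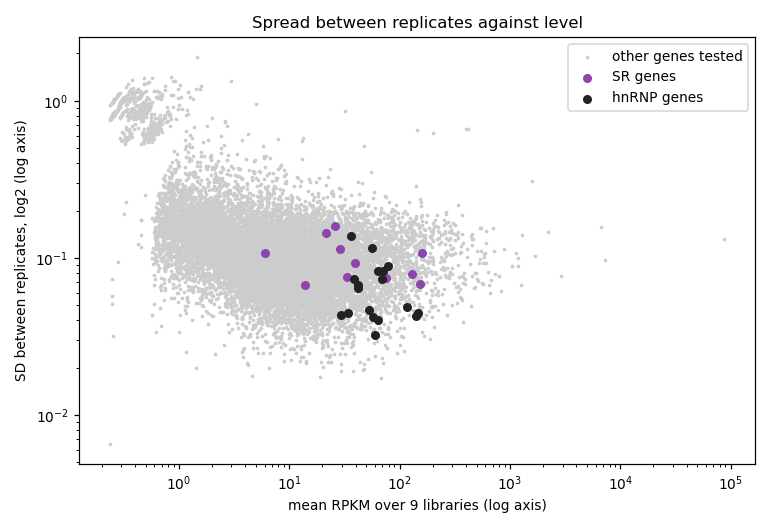
SD between replicates on the log2 scale against mean RPKM for all genes tested (grey), SR genes (purple) and hnRNP genes (black), both axes logarithmic. The members lie between 0.0323 and 0.159, inside the cloud of genes of like level.

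Saline replicate 2 was the lowest of 9 libraries for 16 of 29 members, where it was the lowest for 13.4% of all genes tested. Control ASO replicate 2 was the highest for 9 members (9% of all genes) and saline replicate 1 for 8 (23.8% of all genes). The summed level of the 29 genes was 1870, 1840 and 1910 RPKM in the C9orf72 ASO libraries, 1840, 1970 and 1940 RPKM in the control ASO libraries and 1930, 1780 and 1890 RPKM in the saline libraries. The sums of the 3 groups overlapped. The median deviation of the members was -0.07 on the log2 scale in saline replicate 2 and 0.05 in saline replicate 1, where that of all genes was 0.01 and 0.04.

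**Figure D5:**
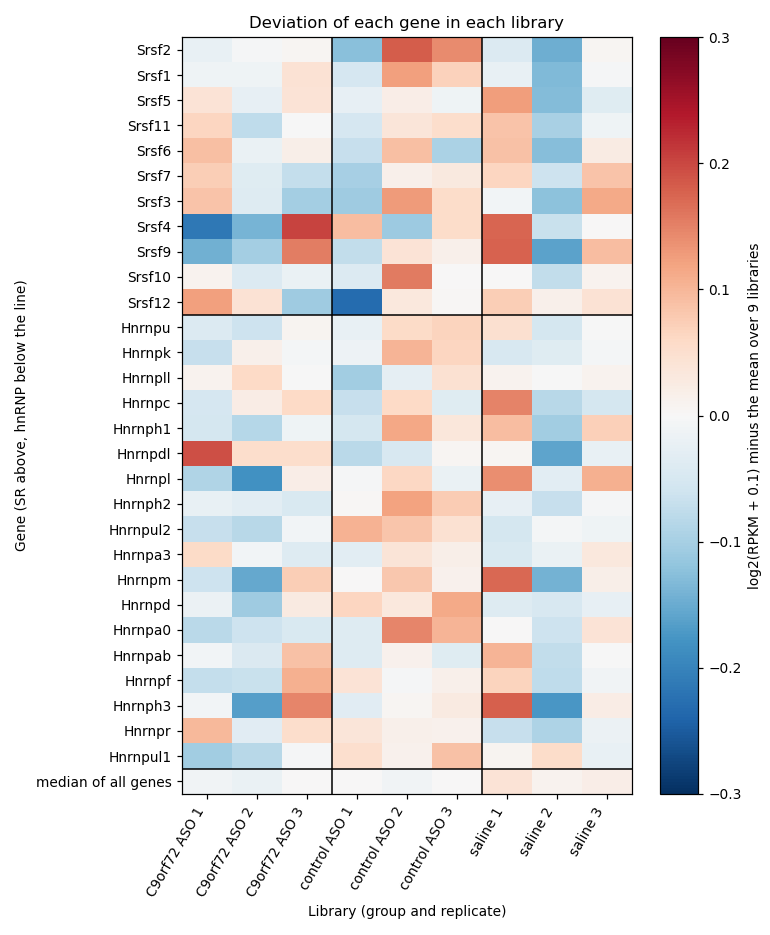
Log2(RPKM + 0.1) of each gene in each library minus its mean over 9 libraries, SR genes above and hnRNP genes below the line, with the median of all genes tested at the bottom. Saline replicate 2 is mostly blue and control ASO replicate 2 mostly red, while no group has 1 colour throughout.

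In the GENCODE M21 annotation 17 of 29 (58.6%) have at least 1 transcript marked for nonsense-mediated decay, against 27.9% of 13348 protein-coding genes tested. Among SR genes it is 9 of 11 (81.8%), with Srsf10 and Srsf12 without one, and among hnRNP genes 8 of 18 (44.4%), Hnrnpd having 4 and Hnrnpdl 2. Transcripts with a retained intron are annotated in 21 members (72.4%, against 57.5%). The deposited values are 1 per gene, so that productive and decay forms cannot be told apart in them. In 11 members an exon overlaps a gene on the opposite strand, Srsf2, Hnrnpk and Hnrnpu among them. Whether the authors counted by strand is not given in the sources used here, and reads from both strands may be in those values. In 3 members, Hnrnpm, Hnrnpul2 and Hnrnpa3, an exon overlaps another gene on the same strand.

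Splicing genes around these families, taken from lists fixed with earlier results of these data known, had no call in the 4 comparisons. The first list held kinases of SR proteins, the transportin import receptors and arginine methyltransferases that act on RNA-binding proteins. Of its 14 genes tested against the control ASO, 0 passed in limma and 4 were lower at an unadjusted p under 0.05, beside 7.71% of all genes, with a median of -0.07. These were the receptors Tnpo2 and Tnpo1, the kinase Dyrk1a and the methyltransferase Carm1, the last 2 named after their values were seen. Tnpo2 and Tnpo1, import receptors of the transportin family that carry hnRNP proteins into the nucleus, averaged 17.6 ± 0.188 and 14.6 ± 0.731 RPKM with the C9orf72 ASO, against 20 ± 0.801 and 17.4 ± 1.1 RPKM with the control ASO and 19.7 ± 0.987 and 15.5 ± 1.94 RPKM with saline. Their log2 fold changes relative to the control ASO were -0.18 (SE 0.06, adjusted p = 0.248, limma) and -0.26 (SE 0.09, adjusted p = 0.266, limma). Relative to saline, Tnpo2 stood at -0.17 (adjusted p = 0.25, limma) and Tnpo1 at -0.09 (adjusted p = 0.701, limma), with overlapping libraries for Tnpo1. The control ASO against saline gave 0.17 for Tnpo1 (adjusted p = 0.794, limma).

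Of 27 SR-related proteins tested against the control ASO, 0 passed in limma and 1 was lower at an unadjusted p under 0.05, beside 7.71% of all genes, with a median of -0.04. That one was Srrm4, which drives the inclusion of neuronal microexons, at 3.5 ± 0.0114 RPKM with the C9orf72 ASO, 4.33 ± 0.135 RPKM with the control ASO and 4.21 ± 0.194 RPKM with saline. On the log2 scale it stood at -0.30 relative to the control ASO (adjusted p = 0.169, limma) and at -0.28 relative to both control groups (adjusted p = 0.0733, limma), below the other 6 libraries in each case. Scaf1, with the next smallest p, was at -0.22 (SE 0.10, adjusted p = 0.364, limma).

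Of 40 core spliceosome genes in the same comparison 0 passed, while 6 were higher and 2 lower at an unadjusted p under 0.05 (6.39% and 7.71% of all genes), with a median of 0.03. Snrpg and Snrpd1, which encode Sm proteins of the ring around spliceosomal RNAs, averaged 21.4 ± 0.997 and 39 ± 2.12 RPKM with the C9orf72 ASO, against 17.1 ± 1.15 and 32.5 ± 2.17 RPKM with the control ASO and 17 ± 2.34 and 33.6 ± 3.8 RPKM with saline. Relative to the control ASO they stood on the log2 scale at 0.33 (SE 0.09, adjusted p = 0.243, limma) and 0.26 (SE 0.09, adjusted p = 0.259, limma), and relative to saline at 0.34 (adjusted p = 0.207, limma) and 0.22 (adjusted p = 0.286, limma).

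Of 17 hnRNP proteins under other gene names 0 passed against the control ASO and 1 was lower at an unadjusted p under 0.05, beside 7.71% of all genes, with a median of -0.05. Khsrp, which binds AU-rich elements, averaged 21.9 ± 3.1 RPKM with the C9orf72 ASO, 27.1 ± 1.32 RPKM with the control ASO and 26.1 ± 1.18 RPKM with saline. Relative to the control ASO it stood at -0.31 on the log2 scale (SE 0.09, adjusted p = 0.239, limma), and Cirbp, a cold-induced RNA-binding protein, stood at -0.16 (SE 0.08, adjusted p = 0.417, limma). Of 16 factors of nonsense-mediated decay 0 passed and 2 were lower at that p, beside the same 7.71% of all genes, with a median of -0.03. The smallest p was that of Casc3 of the exon junction complex, at -0.16 (SE 0.05, adjusted p = 0.254, limma). The SR and hnRNP genes had 0 of 29 fold changes beyond 0.2 on the log2 scale in either direction against the control ASO, where 16% of all genes and 10.2% of genes of like level had. Few or none were also beyond it among the decay factors (0 of 16) and the hnRNP proteins under other gene names (1 of 17). It was 1 of 14 in the list of kinases and import receptors, 2 of 27 SR-related proteins and 7 of 40 core spliceosome genes.

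The summed level of 6 microglia markers was 141 to 156 RPKM with the C9orf72 ASO, 120 to 128 RPKM with the control ASO and 117 to 131 RPKM with saline, with none of the 6 at the floor. The sum of 5 markers of endothelium and mural cells was 20.9 to 23.9, 22.9 to 29.7 and 29 to 36.8 RPKM in the same order. Neuron markers summed to 1670 to 1970, 1840 to 2110 and 1810 to 1890 RPKM and overlapped between groups. The part of these markers in the values of single members was not tested.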

How the data were processed

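Strand-specific libraries were made from total spinal cord RNA, per the labels' protocols. The submitters' processing notes name cutadapt 1.2.1, GSNAP and the genome build mm9. The deposited table gives RPKM made by the authors; its header names no unit, which was read from the values. Each value under 0.5 stands at 0.1 (3.87% of values). Read counter, annotation and gene filter: not given in the sources used here. For short genes with 1 transcript, value times length fell within 0.1 of a whole read in 56.6% to 70.5% of cases at the depth given. That depth was chosen to bring these same values closest to whole reads, so the share is no independent check of the depth or the unit. Values times GENCODE M21 exon lengths summed to 162% to 166% of the per-million scale, for which the cause was not tested; the lengths the authors used are unknown, and no read number is given for a member.

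Symbols came from GENCODE M21 (14321 of 14831 IDs matched). The filter on members left 14430 genes when applied to the whole table. A single limma fit (3.58.1, R 4.3.3) of the 3 groups used log2(RPKM + 0.1), with a mean-variance trend and robust variances (statmod 1.5.0), and adjusted p-values by Benjamini-Hochberg at a threshold of 0.05. A fold change on this scale understates that of low genes. The test was checked on simulated data. Members and lists were chosen with earlier results of these data known. Members given in every library were the 3 with the smallest p in each comparison and, per family, the 2 highest and 2 lowest in level; Srsf4 was added after its values were seen. From each list came the 2 with the smallest p, of which 1 is not reported here.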

Additional observations from a re-analysis of the deposited data

How the results depend on the processing

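No SR or hnRNP gene was called in any of the 4 comparisons under any alternative run: another pseudocount, filter, test setting, scaling, samples in the fit, threshold of 0.1, floor values raised to 0.5, length and GC trends removed, and each library left out in turn. The lowest adjusted p of a member over these was 0.211 to 0.648 against the control ASO, 0.162 to 0.62 against saline, 0.168 to 0.637 against both control groups and 0.345 to 1 between the control ASO and saline. With length and GC trends removed, the hnRNP median against the control ASO moved from -0.07 to -0.03, and the log2 fold change of Hnrnpul1 against both control groups turned to 0.01; the cause was not tested. The hnRNP median of the control ASO against saline ran between 0.00 and 0.06 when 1 library was left out, the highest without saline replicate 1. Of 548 values recomputed, 545 were labelled unchanged. For a single gene this meant the same direction and side of the threshold. A count could change within a fixed ratio, so that 25 against 29 members was unchanged. A median could change by less than the spread of library medians within groups, even where its sign turned. SR medians ran between -0.05 and 0.05 and this spread was 0.0715, so the rule could hardly flag them. Many runs could also not move a member's fold change, only its p-value and interval. These were the filter, test setting, threshold and raised floor runs, and those without a library of a group not compared. Hnrnpul2 against the control ASO thus stayed at -0.13 without each saline replicate. The 545 values are therefore no count of separate checks. Hnrnpl stood at -0.04 against both control groups with length and GC trends removed and at -0.08 without C9orf72 ASO replicate 2, where it was -0.13 with all libraries. No paired analysis was possible because the labels give the libraries no replicate numbers shared between groups. With 3 libraries per group the exact permutation test cannot go below 0.1, and the floor of 0.5 RPKM touched no member.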
